A study of Sus scrofa with 14 samples.

Results

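The omental genome of wild boars and Bama pigs differs in compartment at 1696 bins of 20 kb that lie outside chromosome 10, which is 33.92 Mb or 1.54% of the 109830 autosomal bins considered and part of 113298 autosomal bins in all. A bin was counted when its PC1 score, the first principal component of the Hi-C contact map of its chromosome, was positive in both libraries of one breed's greater omentum and negative in both of the other breed's. In 1166 of these bins (23.32 Mb, 1.06% of all bins) PC1 was negative in Bama pig and positive in wild boar, and these are called B to A. In the other 530 bins (10.6 Mb, 0.483%) PC1 was positive in Bama pig and negative in wild boar, and these are called A to B. Those 4 values of PC1 chose the bins, so the breed difference of PC1 in greater omentum is given as a description with no test. The other bins were A in all 4 omental libraries (48949, stable A), B in all 4 (49909, stable B) or of mixed sign (9276).

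Hi-C and RNA-seq were done on the greater omentum (GOM), a visceral fat depot, and on the upper layer of backfat (ULB), a subcutaneous depot, of 2-year-old female pigs. The 4 animals were 2 wild boars (WB), brought from the wild into captivity early in life, and 2 Bama pigs (BM) of a normal, not inbred line, and all were kept on the same farm and feed. Each assay gave 7 libraries used here, with 2 per breed in GOM, 2 of wild boar ULB and, for Bama pig ULB, replicate 2 alone. A replicate is 1 animal. For Hi-C the tissue was cross-linked and spun, and the floating layer with the adipocytes was taken, whereas RNA came from bulk tissue, in which fewer cells of a type and less RNA per cell cannot be told apart. The SD of PC1 over bins was 30.4 to 34.8 in each library and the share of A bins 48.6 to 50.7%. RNA-seq gave 10833153 to 18627076 estimated counts per library, while the PC1 values of Hi-C hold no contact counts, so the depth behind the value of a bin cannot be read from them.

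Chromosomes fold so that active, gene-rich segments contact each other (compartment A) and inactive, gene-poor segments contact each other (compartment B). A change of compartment between related cell types often goes with a change of transcription nearby, although many genes keep their level when their compartment changes. The greater omentum, a sheet of fat that hangs from the stomach, holds mesothelium, vessels and immune cells besides adipocytes.

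The strongest switched region in each direction and the start sites of 4 genes are shown first, because the results below return to them. The middle 200 bases of the strongest B to A run, a stretch of adjoining switched bins at the start of chromosome 6 (chr6:19901-20100, plus strand), and of the strongest A to B run (chr11:64569901-64570100, plus strand) were read from Sscrofa11.1 and are printed 5′ to 3′ with each CpG dinucleotide in capitals. The whole chromosome 6 run (chr6:1-40000) holds 23.3 CpG per kb and the whole chromosome 11 run (chr11:64540001-64600000) 10.3, beside 12.3 over the autosomes outside chromosome 10.
chr6 run, B to A: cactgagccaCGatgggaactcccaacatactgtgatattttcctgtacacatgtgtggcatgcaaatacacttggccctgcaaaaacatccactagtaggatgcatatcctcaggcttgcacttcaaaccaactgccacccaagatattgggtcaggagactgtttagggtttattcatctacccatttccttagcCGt
chr11 run, A to B: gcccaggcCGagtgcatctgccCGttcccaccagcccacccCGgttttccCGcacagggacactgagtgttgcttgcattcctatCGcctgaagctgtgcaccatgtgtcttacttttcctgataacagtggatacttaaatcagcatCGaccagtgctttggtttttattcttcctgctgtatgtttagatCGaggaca

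For genes, 250 bases before to 50 bases after the RefSeq start site are shown on the strand of the gene, again with CpG in capitals. The 4 genes are ALB (serum albumin, chr8:69643177-69643476, plus strand) and SLC14A1 (a urea transporter, chr1:95354598-95354897, plus strand), which start in A to B bins, and ABCB11 (the bile salt export pump of the liver, chr15:75487043-75487342, minus strand) and IGFBP1 (a secreted binder of insulin-like growth factors, chr18:50022750-50023049, minus strand), which start in B to A bins.
ALB: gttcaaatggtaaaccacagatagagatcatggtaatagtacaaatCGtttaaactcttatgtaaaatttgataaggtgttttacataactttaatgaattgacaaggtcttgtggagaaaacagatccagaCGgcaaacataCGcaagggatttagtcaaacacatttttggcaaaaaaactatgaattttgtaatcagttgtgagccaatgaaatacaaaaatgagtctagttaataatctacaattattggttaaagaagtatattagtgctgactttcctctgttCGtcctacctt
SLC14A1: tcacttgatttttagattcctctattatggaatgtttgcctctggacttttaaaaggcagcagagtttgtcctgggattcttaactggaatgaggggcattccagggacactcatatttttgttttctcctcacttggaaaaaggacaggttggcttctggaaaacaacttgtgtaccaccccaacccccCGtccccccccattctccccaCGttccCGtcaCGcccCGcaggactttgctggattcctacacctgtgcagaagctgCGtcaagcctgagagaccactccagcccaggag
ABCB11: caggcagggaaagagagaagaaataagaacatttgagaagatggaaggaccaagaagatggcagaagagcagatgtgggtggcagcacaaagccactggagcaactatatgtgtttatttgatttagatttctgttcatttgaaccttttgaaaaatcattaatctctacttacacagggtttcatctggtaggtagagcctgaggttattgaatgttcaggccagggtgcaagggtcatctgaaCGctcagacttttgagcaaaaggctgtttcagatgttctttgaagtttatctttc
IGFBP1: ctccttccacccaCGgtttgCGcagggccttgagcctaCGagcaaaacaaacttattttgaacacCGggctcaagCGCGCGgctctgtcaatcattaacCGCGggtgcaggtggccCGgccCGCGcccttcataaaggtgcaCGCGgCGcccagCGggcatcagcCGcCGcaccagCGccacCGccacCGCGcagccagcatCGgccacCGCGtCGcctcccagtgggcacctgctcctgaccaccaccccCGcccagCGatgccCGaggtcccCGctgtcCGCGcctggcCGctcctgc

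The windows of ABCB11, ALB, SLC14A1 and IGFBP1 hold 1, 4, 6 and 33 CpG. Over the 151 windows in B to A bins the median was 11 CpG, over the 65 in A to B bins it was 7, over stable A bins 19, over stable B bins 5 and over all 18288 windows 16. Windows with at most 3 CpG made up 19.2% in B to A and 27.7% in A to B bins, beside 10.4% in stable A, 41.8% in stable B and 16.7% in all. In both directions the switched windows thus lay between those of the stable compartments. The letters GTTAAT, one arm of the site of hepatocyte nuclear factor HNF1, occur on either strand in the windows of ALB and IGFBP1 and not in those of ABCB11 and SLC14A1. They occur in 7.28% of the windows in B to A bins and 13.8% of those in A to B bins (9 of 65). The shares were 5.24% in stable A bins, 10.8% in stable B bins and 6.39% of all windows. The letters TATAAA, on either strand, occur in 9.93% of the windows in B to A and 10.8% of those in A to B bins. For these letters the shares were 8.58% in stable A bins, 19.9% in stable B bins and 10.9% of all.

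The change of PC1 in the switched bins was small against the full range of the score. In B to A bins the median PC1 was 6.54 and 3.81 in wild boar GOM (replicates 1 and 2) and -3.67 and -4.59 in Bama pig GOM. In A to B bins it was -3.95 and -3.24 in wild boar and 3.36 and 3.75 in Bama pig. For comparison, the same libraries had medians of 24.7 to 29.4 in stable A bins and of -30.3 to -25.7 in stable B bins, so the typical switched bin sat close to 0 on both sides of its change. The median difference between the breed means, wild boar minus Bama pig, was 10.3 in B to A bins (quartiles 7.09 and 15.0, largest 73.1) and -8.55 in A to B bins (quartiles -11.9 and -5.97, largest -63.1), which is 0.331 and 0.281 of the SD of the score. The median absolute difference was 3.58 over all bins, 3.34 in stable A and 3.55 in stable B.

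**Figure D1:**
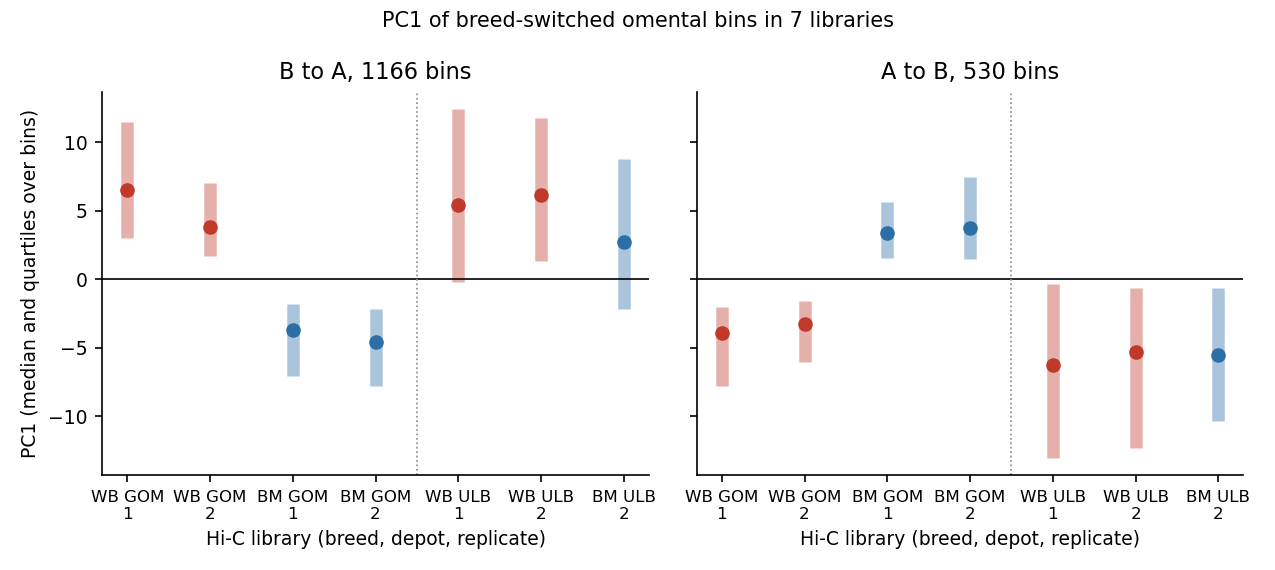
PC1 of the switched bins in each of the 7 Hi-C libraries, with points for the median and bars for the quartiles over 1166 B to A bins (left) and 530 A to B bins (right), wild boar in red and Bama pig in blue. The 4 omental libraries lie on opposite sides of 0 by the rule, while in ULB the median of all 3 libraries lies on the wild boar side in both panels.

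Replicates of a breed differed by a median of 3.61 (wild boar) and 2.61 (Bama pig) in B to A bins and of 2.56 and 2.61 in A to B bins. The gap between the breeds, taken between their nearest libraries, was wider than the larger of both replicate differences in 690 B to A bins (59.2%) and 274 A to B bins (51.7%). This held for 11.7% of all bins and 7.32% of mixed bins. The sign rule makes the gap positive in each switched bin but not in other bins, so these shares are a description. In 1055 B to A bins (90.5%) and 505 A to B bins (95.3%) at least 1 of the 4 libraries lay within 5 of 0, and in 447 (38.3%) and 261 (49.2%) within 1. All 4 libraries were at least 10 away from 0 in 6 B to A and 5 A to B bins.

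The sign sets the membership, and a bin can be a member by a very small margin. The B to A bin closest to the threshold, chr14:12040001-12060000, had a PC1 of 0.281 and 1.69 in wild boar and of -4.64 and -0.000409 in Bama pig. The nearest bin left out, chr18:36900001-36920000, had 4.51 and 6.72 against 0.00286 and -4.76. In the other direction chr15:96600001-96620000 was kept with -0.00307 and -2.12 against 3.65 and 1.54, and chr2:84720001-84740000 was left out with -0.425 and 0.00126 against 3.28 and 0.243. A single library kept 4532 further bins from counting as B to A and 3113 from counting as A to B. With wild boar replicate 1 or 2 or Bama pig replicate 1 or 2 left out, 1806, 2610, 2582 and 2198 bins counted as B to A and 1236, 1246, 1485 and 1266 as A to B, since 3 libraries ask less of a bin than 4. Changes of the same size were also found without a change of sign, since 4.01% of stable bins moved by at least 10.3 towards wild boar A and 6.83% by at least 8.55 the other way.

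Chromosome 1, the longest, carried 28.6% of all B to A bins (334 bins, 2.43% of its bins) and 12.3% of A to B bins (65 bins, 0.474%). The median difference of its B to A bins was 17.5, beside 5.16 to 11.7 on each of the other chromosomes. The median PC1 of all its bins was -0.745 and -1.73 in wild boar GOM against -4.68 and -4.84 in Bama pig GOM, so the breeds differed in the median of the chromosome, although PC1 has a mean of 0 on each chromosome. With PC1 centred on the chromosome median in each library, the split of 68.8% B to A over all chromosomes became 54.2% (911 B to A and 771 A to B bins), and on chromosome 1 it went from 83.7% to 59.5%. Of the bins as first counted, 632 B to A and 351 A to B bins were also switched after centring. Without chromosome 1 there were 832 B to A and 465 A to B bins (64.1%). B to A bins outnumbered A to B bins on 15 of 17 chromosomes, chromosome 1 included.

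Most switched bins stood alone. The B to A bins formed 881 runs of adjoining bins, of which 702 (79.7%) were a single bin, 115 were 2 bins and 64 were 3 or more. The A to B bins formed 424 runs, of which 365 (86.1%) were single and 21 held 3 or more bins. Runs of at least 3 bins held 234 B to A bins (20.1%) and 89 A to B bins (16.8%), and the longest measured 220 kb and 180 kb.

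Like other bins without a stable sign, the switched bins often lay where A meets B in both breeds. A stable sign change is the stretch between neighbouring stable bins of opposite sign, and 607 B to A bins (52.1%) and 287 A to B bins (54.2%) lay inside one, with stable A on one side and stable B on the other. Of the bins of mixed sign, which share with the switched bins that they have no stable sign, 46.8% lay there, and of all bins 4.77%, to which stable bins cannot add by definition. Within 100 kb of such a place were 64.8% and 67.2% of the switched bins, 63.1% of mixed and 19.3% of all bins. More than 500 kb away were 12.9% and 10.9% of the switched bins, beside 48.7% of all. This depends on the definition, because with only direct neighbours of opposite sign counted as a sign change the median distance went from 0 to 3300 kb for B to A and 2310 kb for A to B bins, beside 3520 kb for all bins. Bins inside a stable A region, with A on both sides, made up 35.5% of the B to A and 27.4% of the A to B bins, and bins inside a stable B region 11.9% and 18.5%. Over runs, each taken by its mean difference, the median for B to A was 12.2 inside stable A regions, 9.0 between A and B and 8.29 inside stable B regions. For A to B runs these medians were -8.96, -7.51 and -8.84.

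**Figure D2:**
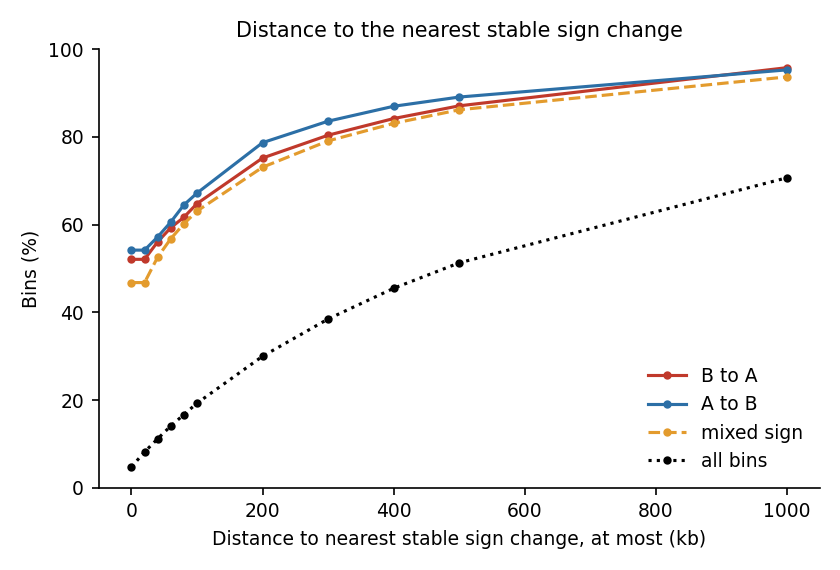
Share of bins (vertical axis, percent) whose distance to the nearest stable sign change is at most the value on the horizontal axis (kb), for B to A, A to B, mixed and all bins. The curves of both switched classes run close to that of mixed bins, starting at 52.1% and 54.2% against 46.8%, and far above the curve of all bins, which starts at 4.77%.

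In GC content and gene density the switched bins lay between the stable compartments. The median GC content was 42.56% in B to A and 40.28% in A to B bins, beside 43.88% in stable A, 37.8% in stable B and 40.92% in mixed bins. The median of B to A bins was above that of stable B bins on 17 of 17 chromosomes and below that of stable A bins on 12, and for A to B bins these counts were 16 and 15. Start sites of protein-coding RefSeq genes occurred at 6.52 per Mb in B to A and 6.13 per Mb in A to B bins, beside 14.1 in stable A, 3.1 in stable B and 6.27 in mixed bins. Repeats, marked by soft masking, took a median of 30.54% and 35.88% of the bin, and thus lay outside the values of stable A (33.55%) and stable B (35.22%). A border of a topologically associating domain called in wild boar GOM lay in or next to 18.7% of B to A and 22.1% of A to B bins (18.8% of all), and one called in Bama pig GOM next to 18.4% and 19.8% (17.8% of all).

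The longest and strongest runs are described one by one, with the mean PC1 over the run in each library. The strongest B to A run is the first 40 kb of chromosome 6, whose sequence is given above, with 49.2 and 37.8 in wild boar GOM against -23.4 and -25.8 in Bama pig GOM. The next bin along the chromosome was stable A with 62.6 and 64.3 against 52.2 and 47.2, so the wild boar run continued its neighbour and the Bama pig run broke from it. In ULB the run had 44.7 and 39 in wild boar and -17.9 in Bama pig, the same switch as in GOM. The strongest A to B run, chr11:64540001-64600000, had -37.9 and -19.7 in wild boar GOM against 15.8 and 13.8 in Bama pig GOM. The ULB libraries had -43.8 and -21.6 against 11.2, again the same switch. It overlaps the gene LOC102167784 and lies between a stable A bin before it and a stable B bin after it.

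The longest B to A run, chr3:106300001-106520000, covers 11 bins and overlaps LTBP1, which encodes a binding protein of latent TGF-beta. Its PC1 was 7.27 and 2.96 in wild boar GOM against -6.43 and -9.22 in Bama pig GOM, with 9.93, 11.6 and 2.14 in ULB. It lies between B and A, and its single bins ranged from 0.194 to 11.4 in wild boar GOM replicate 2. The next, chr5:1080001-1260000, holds no RefSeq start site, has a GC content of 56.7% and had 15.5 and 5.06 against -7.71 and -7.14, with 8.89, 10.6 and 4.72 in ULB.

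On chromosome 6 a run of 6 bins (chr6:100020001-100140000) inside a stable B region holds the start of PTPRM, a receptor tyrosine phosphatase of cell contacts. It had 13.3 and 4.86 in wild boar GOM against -9.58 and -6.36 in Bama pig GOM, but 17.9, 16.2 and 15.1 in ULB, so in Bama pig it was A in backfat and B in omentum. A pair of further runs on chromosome 1 had the same order of states by their means. One is chr1:248220001-248280000, which had 21.1 and 12.9 against -10.3 and -5.96 in GOM and 13.9 to 21.2 in ULB. The other, chr1:191160001-191200000 at the start of ISG20, an exonuclease gene induced by interferon, had 14.6 and 8.95 against -14.7 and -12.8. In ULB it had 3.72, 15.4 and 8.45, but 1 of its 2 bins was just below 0 in Bama pig (-0.514) and in wild boar replicate 1 (-0.88).

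The remaining B to A runs overlap RNF165 (chr1:95960001-96080000), which encodes a ubiquitin ligase, and ANO2 (chr5:64900001-65000000), which encodes a chloride channel opened by calcium. The run at RNF165 had 19.1 and 5.85 against -6.84 and -8.83 in GOM and 4.97 to 11.8 in ULB. The run at ANO2 had 10.9 and 5.58 against -2.47 and -7.58 in GOM and 16.6 to 20.8 in ULB. In all 7 B to A runs other than the one at the start of chromosome 6, the mean PC1 of the Bama pig ULB library was positive.

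Among A to B runs the longest was chr2:66920001-67100000, 9 bins with the start sites of LOC100624460 and LOC102167930. It had -9.49 and -6.06 in wild boar GOM against 3.97 and 5.22 in Bama pig GOM, while ULB was deep in B with -20.0, -22.2 and -24.7. A run on chromosome 8 (chr8:27920001-28040000) inside a stable B region holds the starts of ARAP2, which encodes a GTPase-activating protein, and DTHD1. It had -11.7 and -7.44 against 5.12 and 9.06 in GOM and -25.3, -22.0 and -19.6 in ULB. At chr6:62120001-62180000, which overlaps the zinc finger gene ZNF134, the values were -19.9 and -4.79 against 5.62 and 5.49, with -26.8, -22.7 and -12.9 in ULB. Here wild boar GOM replicate 1 lay further from 0 than replicate 2, as it did in all runs described here, and its SD over all bins was also the larger one, 34.8 against 30.4.

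The run at SLC2A2 (chr13:109540001-109640000), the gene of the glucose transporter GLUT2, was weaker in both depots. It had -6.38 and -4.34 in wild boar GOM against 5.35 and 7.06 in Bama pig GOM. In ULB it had -5.44, -4.03 and -3.08, and its 5 bins were not of one sign there. The 3 remaining A to B runs (chr2:28520001-28680000, chr3:85460001-85580000 overlapping CCDC85A and EFEMP1, and chr8:108560001-108600000) had wild boar means of -6.76 to -3.65 and Bama pig means of 4.87 to 10.1. In ULB the former pair of these was B in all 3 libraries, and the last had 0.609, -9.55 and -1.36.

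**Figure D3:**
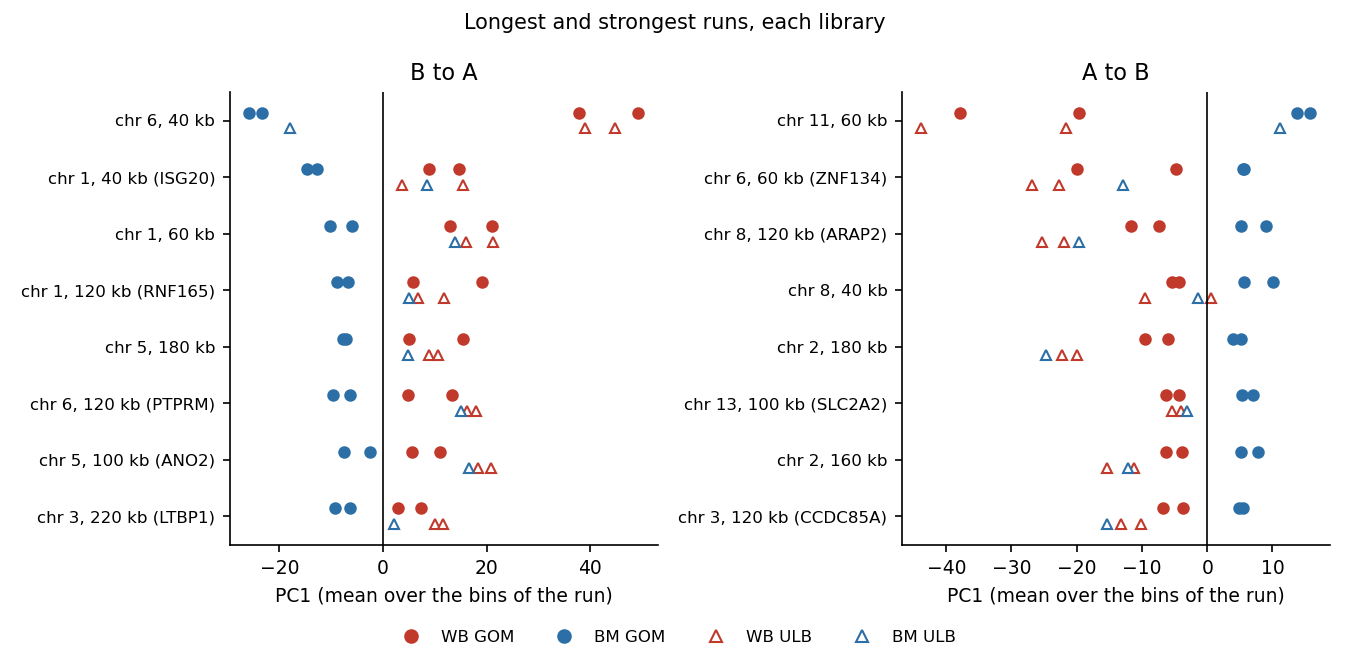
Mean PC1 of the 8 named runs of each direction in each library, wild boar in red and Bama pig in blue, GOM as filled circles and ULB as open triangles. Only the top run of each panel, on chromosomes 6 and 11, has its Bama pig ULB triangle with the Bama pig GOM circles.

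Backfat was not used to choose the bins, although it came from the same animals. Of the 1166 B to A bins, 654 (56.1%, 95% exact binomial interval 53.2 to 59.0) were A in all 3 ULB libraries, 144 (12.3%) were B in all 3 and 133 (11.4%, interval 9.64 to 13.4) had the same switch as in GOM. Of the 530 A to B bins, 322 (60.8%, 56.5 to 64.9) were B in all 3, 49 (9.25%) were A in all 3 and 39 (7.36%, 5.28 to 9.92) had the same switch. In both directions the commonest state in ULB was the one that wild boar GOM had, and it held for the Bama pig ULB library too. In 18.7% and 18.1% of the bins the wild boar ULB replicates differed in sign, and without wild boar ULB replicate 1 the share with the same switch was 18.4% in B to A and 10.9% in A to B bins. The intervals cover counting error only, and neighbouring bins are not independent.

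Mixed bins, the nearest comparison, were A in all 3 ULB libraries in 32.0% and B in all 3 in 32.9%. Stable A bins were A in all 3 in 94.2%, and stable B bins were B in all 3 in 94.5%. The same rule applied to ULB called 1.85% of all bins B to A and 0.92% A to B, and 8.25% and 4.79% of mixed bins, so the shares of 11.4% and 7.36% stood above all bins and closer to mixed bins. The opposite switch was found in 17 B to A bins (1.46%) and 24 A to B bins (4.53%). An exact permutation test of 2 libraries against 1 or 2 cannot go below p = 0.333, so the breed difference of a single bin in ULB was not tested.

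By library, B to A bins were A in 74.2% and 79.5% in wild boar ULB and in 65.4% in Bama pig ULB, with median PC1 of 5.46, 6.14 and 2.76. A to B bins were A in 23.8%, 21.9% and 23.2%, with medians of -6.22, -5.27 and -5.51. The median ULB difference, wild boar minus Bama pig, was 3.06 in B to A bins, above 0 on 17 of 17 chromosomes, and 0.101 in A to B bins, above 0 on 10 and below 0 on 7. Both wild boar ULB libraries lay above the Bama pig one in 54.7% of B to A bins and below it in 14.5%, beside 35.0% and 34.8% of all bins. In A to B bins these shares were 34.7% and 36.2%. Mixed bins leaned the same way as B to A bins, with 43.4% and 25.4% and a median difference of 1.46. With PC1 centred on the chromosome median, the share with the same switch was 8.89% in B to A and 10.6% in A to B bins, so the order of the directions turned. The single Bama pig ULB library gives no spread of its own, and its median PC1 over the bins of chromosome 1, -2.96, was below that of wild boar ULB (-0.663 and -0.433), and the part of this in the B to A difference was not tested.

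**Figure D4:**
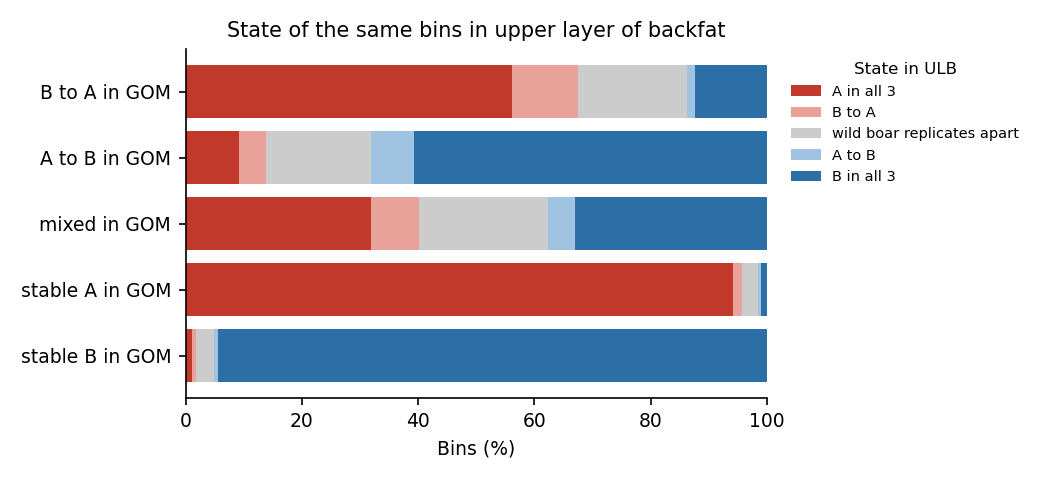
State in ULB (share of bins in percent) of bins grouped by their state in GOM, where pale red and pale blue are the B to A and A to B switch in ULB and grey marks bins whose wild boar ULB replicates differ in sign. A in all 3 libraries fills 56.1% of the B to A bar and B in all 3 fills 60.8% of the A to B bar, while the mixed bar is split evenly with 32.0% and 32.9%.

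Genes were placed by the bin of their start site, through the symbols shared by the expression tables and the RefSeq annotation. This put 107 genes in B to A bins and 26 in A to B bins, of 12763 placed outside chromosome 10. Expression was measured as TPM, a level that is scaled for transcript length and sequencing depth. The median TPM of genes in B to A bins was 6.34 and 4.62 in wild boar GOM against 7.24 and 8.04 in Bama pig GOM. In A to B bins it was 0.957 and 1.59 against 1.36 and 1.5. Genes in stable A bins had 10 to 16.0, genes in mixed bins 4.21 to 8.23 and genes in stable B bins 0.473 to 1.03. Genes in B to A bins were thus the more active switched class, between both stable compartments and close to genes in mixed bins. Genes in A to B bins were nearer to those of stable B. Mean TPM in GOM was below 1 for 25.2% and 42.3% of genes, beside 17.0% in stable A, 28.8% in mixed and 51.8% in stable B bins.

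TPM itself was offset between the breeds. The TPM of all listed genes summed to 775297 and 834148 in wild boar GOM and to 956616 and 932686 in Bama pig GOM, and the median log2 ratio over tested genes was -0.577. On that scale 50 of 100 tested genes in B to A bins and 14 of 20 in A to B bins were lower in both wild boar libraries, beside 49.5% of all tested genes, and 1 in each class was higher, beside 3.98%. With CPM, counts scaled for library size, after TMM, edgeR's normalization, 27 and 6 genes were lower (22.1% of all) and 16 and 3 higher (18.8% of all). Fold changes below come from edgeR on that scale, where the median over all genes was -0.0134.

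The breeds were compared in GOM with edgeR's quasi-likelihood test on rounded estimated counts of 16615 genes, with Benjamini-Hochberg adjustment over all of them, and calls needed an absolute log2 fold change above 1 besides an adjusted p below 0.05. None of the 120 tested genes in switched bins was called, beside 0.0241% of all tested genes, and the smallest adjusted p was 0.103. At an unadjusted p below 0.05 there were 4 higher and 6 lower in wild boar of 100 in B to A bins and 1 higher and 2 lower of 20 in A to B bins (3.29% and 4.71% of all genes). DESeq2, another count test, gave 4 higher and 4 lower genes in B to A and 2 higher and 1 lower in A to B bins at an unadjusted p below 0.05 (4.12% and 4.09% of all genes), and after adjustment called 4 of them (ALB, ABCB11, MAT1A and SLC14A1), beside 1.01% of all genes. Without wild boar GOM replicate 1 edgeR called 3 genes in switched bins of 115 in all, and without wild boar GOM replicate 2 it called 1 of 70. The median log2 fold change, wild boar minus Bama pig, was -0.0478 in B to A bins (47 of 100 above 0, quartiles -0.508 and 0.349) and -0.188 in A to B bins (8 of 20 above 0, quartiles -0.752 and 0.135). The median was 0.086 for stable A, -0.151 for stable B and -0.0134 for all genes. Over the pairs of 1 wild boar and 1 Bama pig library the median ranged from -0.15 to 0.148 for genes in B to A bins and from -0.374 to -0.0247 for genes in A to B bins.

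Genes that lay wholly inside switched bins, a list set beside the one by start site, had a median log2 fold change of 0.396 in B to A (10 tested, 7 above 0) and of -0.644 in A to B (4 tested, 1 above 0). Their smallest adjusted p from edgeR's test was 0.609 and 0.63, and no gene was called. With so few genes, 1 gene moves these counts.

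Among the genes with the largest folds, ALB, in an A to B bin with PC1 of -7.11 and -4.77 in wild boar GOM against 0.81 and 1.84 in Bama pig GOM, had 6.6 and 4.19 TPM in wild boar and 293 and 873 in Bama pig. The groups did not overlap, and the Bama pig replicates differed from each other by more than the wild boar ones. Its log2 fold change was -6.22 (SE 0.721, adjusted p = 0.103 from edgeR, 8.15e-23 from DESeq2). In ULB it had 1.95 and 4.42 against 77.7, and there it was the only gene in a switched bin that edgeR called, over a fit of all 7 libraries (log2 fold change -4.75, adjusted p = 0.0416, beside 0.252% of 17877 genes called). Its bin did not have one state in wild boar ULB, with PC1 of 3.82 and -0.386 against 3.04.

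ABCB11, in a B to A bin, had 0.0144 and 0.0119 TPM in wild boar GOM against 0.821 and 1.43 in Bama pig GOM, which rest on 1 and 1 counts against 50 and 72. It was thus lower in wild boar, where its bin was A. The ratio of Bama pig over wild boar was 58.3 (95% counting interval 15.8 to 487), from summed counts scaled by total counts without TMM. On the TMM scale the log2 fold change was -5.53, with an adjusted p of 0.304 from edgeR and 0.00374 from DESeq2. Its bin was one of those with the same switch in ULB, where the TPM was 0.0735, 0.0983 and 0.441.

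IGFBP1 and MAT1A, the latter the liver form of methionine adenosyltransferase, also start in B to A bins and also had their higher values in Bama pig. IGFBP1 had 0 and 0.124 TPM in wild boar GOM against 1.03 and 2.48 in Bama pig GOM, and 0 in the 3 ULB libraries. The omental values rest on 0 and 1 against 6 and 13 counts (ratio 18.2, counting interval 2.89 to 755, scaled as for ABCB11). On the TMM scale its log2 fold change was -3.74 (adjusted p = 0.604 from edgeR). MAT1A had 0.073 and 0.101 against 0.682 and 5.49, from 2 and 4 against 22 and 145 counts, and its log2 fold change was -4.6 (SE 1.22, adjusted p = 0.568 from edgeR, 0.0049 from DESeq2). For both genes the breeds did not overlap. SLC2A2, in an A to B bin, had 0.591 and 0.131 against 1.4 and 1.96, with a log2 fold change of -1.72 (SE 0.849, adjusted p = 0.63 from edgeR), and 0.191 to 0.356 in ULB.

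Of the 7 measured hepatocyte markers, ALB is the one that starts in a switched bin. The summed TPM of the list (ALB, APOA1, APOC3, TTR, FGB, APOB and TF) was 259.8 and 186.2 in wild boar GOM against 556 and 1439 in Bama pig GOM, with 207.5, 223.3 and 289.1 in ULB. Of the 7, 5 were lower in both wild boar GOM libraries, beside 49.5% of all tested genes on the TPM scale. Without ALB the sums were 253.2 and 182 against 263 and 565.5 in GOM, and 205.6, 218.9 and 211.5 in ULB. APOA1 was the largest term of each of these sums, in which Bama pig replicate 1 lay close to wild boar replicate 1. APOC3 had 2.19 and 0 in wild boar GOM against 36.1 and 51.9 in Bama pig GOM. TTR had 1.14 and 0.221 against 10.3 and 45.3, and APOB 0.113 and 0.125 against 6.15 and 8.46. FGB, which encodes a fibrinogen chain, had 1.7 and 2.23 against 40.7 and 128. APOA1 and TF, by contrast, overlapped, with 168 and 163 against 147 and 227 and with 79.9 and 16.4 against 23.0 and 105. In ULB, FGB had 1.52 and 2.5 in wild boar against 14.7 in Bama pig, and APOA1 193 and 206 against 146. The part of these markers in the values of ALB, ABCB11, IGFBP1, MAT1A and SLC2A2 was not tested. Among the other lists, summed adipocyte markers were 9689 and 13240 against 13290 and 17890, macrophage markers 749.9 and 675.3 against 596.5 and 352.5, and endothelial markers 355.8 and 359.1 against 604.8 and 465.2. The breeds did not overlap in these 3 sums, with macrophage markers the higher in wild boar. By gene, 5 of 7 adipocyte and 2 of 3 endothelial markers were lower in both wild boar GOM libraries. Of 6 macrophage markers, 2 were higher in both and the others overlapped. TPM was offset between the breeds, and on that scale 49.5% of all tested genes were lower and 3.98% higher in both wild boar GOM libraries. Mesothelial markers had 176.8 and 72.65 against 138 and 99.36 in GOM and at most 1.124 in ULB. Lymphocyte markers had 27.38 to 52.4 in GOM. Exocrine pancreas markers summed to 0.7922 and 3.837 against 0.2869 and 0.6364 without overlap. Of the 3 measured, only CEL was higher in both wild boar GOM libraries, and none exceeded 1.85 TPM in GOM. Skeletal muscle markers had 2.678 to 5.007 in GOM and 360.4 in wild boar ULB replicate 1.

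SLC14A1 was the gene in an A to B bin with the largest value in the other direction. It had 1.31 and 1.97 TPM in wild boar GOM against 0.0761 and 0.242 in Bama pig GOM, from 37 and 69 against 2 and 6 counts. It was thus higher where its bin was B, with a log2 fold change of 3.92 (SE 0.931, adjusted p = 0.542 from edgeR, 0.00834 from DESeq2). Its ULB values were 0.0998, 0.0346 and 0.255, all near the low omental group. Its start bin had -0.572 and -0.955 against 7.16 and 16.6, and of the 3 bins of its body 1 was A to B and 1 was B to A. The difference of the breed effect between depots had an unadjusted p of 0.00482 and an adjusted p of 0.97 in edgeR's test of the interaction.

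Among other genes of B to A bins, CCSER1 had 9.37 and 3.64 TPM in wild boar GOM against 48.0 and 23.6 in Bama pig GOM, with no overlap (log2 fold change -1.9, SE 0.517, adjusted p = 0.577 from edgeR), but only 1 of the 62 bins of its body was switched. DNAI2, a dynein chain of motile cilia, had 0.369 and 0.299 against 1.57 and 0.941.

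The genes of B to A bins with the highest omental TPM lay within a few fold of each other in the breeds, and none was called. SMPDL3A, an enzyme of the acid sphingomyelinase family, had 63.7 and 47.7 against 149 and 106 TPM in GOM and 312 to 406 in ULB, with a log2 fold change of -0.61 (SE 0.359, adjusted p = 0.653 from edgeR). PTPRM, at the start of the chromosome 6 run described above, had 46.7 and 45.0 against 122 and 56.8, and 10 of its 38 bins were B to A. ACSS3, a mitochondrial acyl-CoA synthetase, had 84.3 and 102 against 85.7 and 126, and MSRB3, a methionine sulfoxide reductase, 62.0 and 65.4 against 63.3 and 97.9. YIPF5, a membrane protein of the early secretory pathway and the highest of the genes wholly inside B to A bins, had 76.4 and 77.5 against 61.3 and 103. DUT, which removes dUTP, and TSPAN12, a tetraspanin of Norrin signalling, lay between 46.5 and 119 in the 4 omental libraries. ISG20, whose run was among the strongest, had 1.57 and 0.813 against 1.58 and 0.919.

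After ALB, GIMAP4 had the highest TPM of the genes in A to B bins. GIMAP4, a GTPase of lymphocytes, lies wholly in A to B bins and starts in one that had the same switch in ULB. It had 102 and 52.4 TPM in wild boar GOM against 150 and 61.6 in Bama pig GOM, with 23.6, 28.2 and 53.5 in ULB, with overlap in GOM (log2 fold change 0.127, SE 0.479, adjusted p = 0.951 from edgeR). TFEC, a transcription factor of macrophages, had 8.74 and 4.51 against 20.0 and 15.5 without overlap (log2 fold change -0.856, SE 0.435, adjusted p = 0.63). IKZF2, the lymphoid factor Helios, had 20.6 and 6.31 against 27.0 and 25.8.

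ARAP2 had 15.5 and 9.47 against 19.5 and 21.3 in GOM and 1.53 to 4.8 in ULB, the depot in which its run was deeper in B. ARHGAP42, a GTPase-activating protein, had 20.9 and 7.15 against 32.5 and 27.0, ATRNL1 15.6 and 8.95 against 17.9 and 17.7, and RAD51C, of recombinational repair, 7.37 and 9.53 against 11.6 and 12. NKX6-1, a homeobox factor of pancreatic beta cells, was low throughout with 0.0913 and 0.0971 against 0.542 and 0.702 TPM in GOM, and its bin was A in all 3 ULB libraries, where the gene had 1.27, 0.647 and 1.27. RBM11, an RNA-binding protein, had 0.225 and 0.398 against 1.11 and 0.964, and DTHD1 had at most 0.291 in each library.

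**Figure D5:**
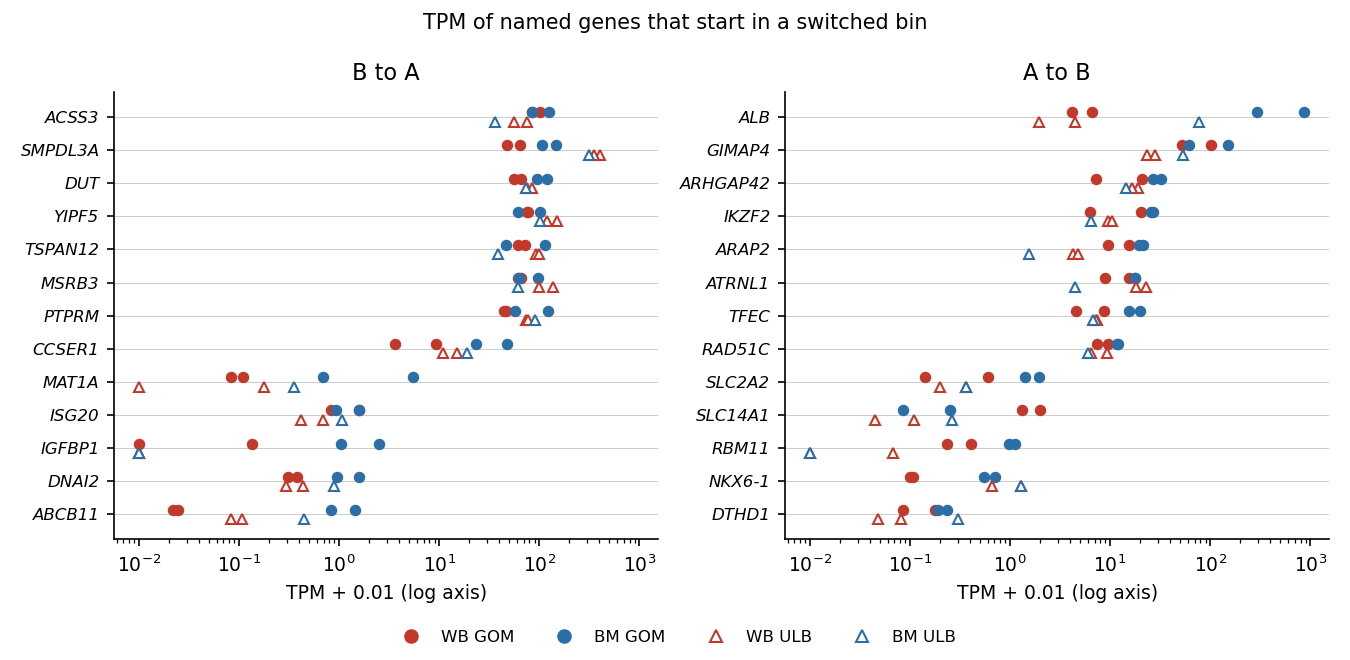
TPM plus 0.01 (log axis) of the named genes that start in B to A bins (left) and A to B bins (right), with wild boar in red, Bama pig in blue, GOM as filled circles and ULB as open triangles. ALB is the widest apart, with 4.19 and 6.6 against 293 and 873 in GOM, and the genes with the highest TPM in the left panel lie within one decade in GOM.

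By gene family, developmental transcription factors of the homeobox, forkhead, SOX, T-box, GATA and nuclear receptor groups made up 6 of 107 genes in B to A bins (ADNP2, DRGX, EN1, FOXD2, PRRX1 and SHOX2, 5.61%) and 2 of 26 in A to B bins (NKX6-1 and NR1I2, 7.69%), beside 2.17% of all placed genes. Of the 6 tested among them none was called by edgeR, and 3 had an unadjusted p below 0.05. SHOX2 was higher in wild boar GOM, and DRGX and NKX6-1 were lower, beside 3.29% higher and 4.71% lower of all genes. DRGX rests on 0 and 0 counts in wild boar against 10 and 4 in Bama pig, and NKX6-1 on 4 and 5 against 22 and 23. Ion channels were 4 of 107 (KCNC1, KCNJ11, KCNJ15 and MCOLN3, 3.74%, beside 1.76%) and proteases with their inhibitors 4 of 107 (ENPEP, PAPPA, PCSK6 and SERPINB5, 3.74%, beside 1.57%), and neither family had a gene in A to B bins. Solute carriers numbered 2 and 2 (2.51% of placed genes) and G protein-coupled or frizzled receptors 2 and 2 (1.61%). Cell adhesion, zinc finger and keratin genes (0.964%, 2.03% and 0.251% of placed genes) each had 1 gene in A to B bins. Collagens (0.274%) had 1 in B to A bins. No cytokine, chemokine, cytochrome P450 or glucuronosyltransferase gene started in a switched bin. Cytokines, chemokines and their receptors made up 1.08% of placed genes, and cytochrome P450 and glucuronosyltransferase genes 0.125%, so few or none would be looked for among so few genes. No test was made on the families, whose lists of symbols were completed after the values had been seen.

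A few further genes were picked after their values were seen. SHOX2, a homeobox factor of limb development in a B to A bin, had 1.63 and 5.37 TPM in wild boar GOM against 0.839 and 1.79 in Bama pig GOM, with 18.3, 29.9 and 16.0 in ULB, and EN1, another homeobox factor, had at most 0.138 in GOM and had 7.12, 3.16 and 4.44 in ULB. The bin of SHOX2 was A in all 3 ULB libraries. RGS4, a regulator of G protein signalling wholly in a B to A bin, had 38.3 and 18.4 against 6.61 and 18.4 in GOM. GALR1, a galanin receptor also wholly in B to A bins, had 3.62 and 2.6 against 8.69 and 11, the direction opposite to its compartment. For RGS4 and GALR1 the log2 fold changes were 1.7 and -1.1, with adjusted p of 0.609 and 0.616 from edgeR.

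In ULB, edgeR over 7 libraries tested 104 genes of B to A and 25 of A to B bins, under the assumption that the single Bama pig library varies like the other groups. Their median log2 fold changes were 0.198 and -0.405, beside 0.129 for stable A, 0.101 for stable B and 0.0028 for all genes. At an unadjusted p below 0.05, 7 genes were higher and 3 lower in wild boar in B to A bins and 3 higher and 4 lower in A to B bins, beside 5.44% and 9.5% of all genes. The breed effect did not pass the test of a difference between depots for any gene in switched bins, or for any of the 17877 genes tested by edgeR. At an unadjusted p below 0.05 this interaction had 2 genes higher and 3 lower in each class, and 2.67% and 2.19% of all genes. Among the named genes, ATRNL1 and ARAP2 had the unadjusted p of 0.00465 and 0.016 there (adjusted p = 0.97 for both). ATRNL1 had 22.8, 18.2 and 4.49 TPM in ULB, lower in the Bama pig library. In GOM its TPM was 15.6 and 8.95 in wild boar against 17.9 and 17.7 in Bama pig, lower in wild boar without overlap. On the TMM scale of edgeR its log2 fold change in GOM was 0.0217.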

How the data were processed

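RNA-seq and Hi-C of 7 libraries each, from 4 animals, were grouped by the breed, depot and replicate number that the labels give. The bins, the lists of genes and markers and the rules for named runs and genes were chosen with earlier results of these data known.

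For Hi-C, the authors normalized the contact matrices, oriented the first component of each chromosome by its gene density, and deposited the resulting score for 20-kb bins in 1 file per library. The files are named for an A-B index, but the values have the form of PC1 and were used by sign and size as they stand. The authors also deposited the start and end of each topologically associating domain, called on merged replicates, and a bin within 1 bin of either was counted as near a border. For RNA-seq, the authors deposited an estimated count per gene from kallisto (0.43.0 in the submitters' processing notes), without normalization between libraries, against Sscrofa11.1 and the Ensembl annotation. TPM values of the same genes were deposited in a second table. Estimated counts were rounded to whole numbers for testing.

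Of 21280 genes, 14821 had a symbol and 13051 (61.3%) were placed on an autosome by symbol in the RefSeq annotation of this assembly, in which each autosome ends where the bins end. The remainder was not placed, so counts of genes in switched bins are of placed genes. Sequences and GC content came from the same assembly, and promoter windows from its RefSeq start sites.

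Breeds were compared in GOM with edgeR 4.0.16 (quasi-likelihood F test, TMM) in R 4.3.3 on genes that exceeded 0.1 TPM in both replicates of either breed, and in ULB and for the interaction of breed and depot in a fit of all 7 libraries. All p-values are two-sided and adjusted by Benjamini-Hochberg over all genes tested. The SE given with an edgeR fold change was derived from the test, as the absolute log2 fold change over the square root of F. DESeq2 1.42.0 was an alternative. The remaining steps used Python 3.11.15 with pandas 2.3.3, scipy 1.17.1, numpy 2.4.6 and, for plots, matplotlib 3.10.9. The scripts were tested on simulated data. Alternatives covered centring, size and run length of PC1, the definition of a sign change, other normalizations, filters and tests, a replicate block, gene placement by the whole body, and each library left out. The alternatives without chromosome 1 and with TMM-scaled CPM were chosen after seeing the data.

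Described runs are, per direction, the 5 longest and the 3 of at least 2 bins whose smallest absolute PC1 was largest. Described genes are those called, the 8 with the highest omental TPM, the 5 with the largest fold among those with no overlap of TPM and 1 TPM or more on average in the higher breed, those that start in a described run, and those the study discusses. A gene that meets this rule is not reported here. Estimated counts summed to 10833153 to 18627076 per library. Counts of at most 3 were treated as the floor. Binomial and counting intervals are exact, at 95%, and cover counting error only.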

Additional observations from a re-analysis of the deposited data

Results flagged for a closer look

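In 17 bins the breeds switched from B to A in GOM and from A to B in ULB, and in 24 bins it was the other way round. The former 17 bins form 17 runs on 7 chromosomes, with a median difference, wild boar minus Bama pig, of 8.26 in GOM and -5.45 in ULB. The latter 24 bins form 24 runs on 9 chromosomes, with medians of -8.68 and 7.7. All are single bins, and the difference between the depots was not tested. Among the described runs, a pair switched A to B in GOM moved the other way in ULB, where both wild boar libraries lay above the Bama pig library although all 3 were in B. The mean difference in ULB was 3.56 for chr2:66920001-67100000 and 3.63 for chr3:85460001-85580000, against -12.4 and -10.4 in GOM, and this was not tested either.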

How the results depend on the processing

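With an absolute PC1 of at least 0.1 SD in each of the 4 GOM libraries, 238 B to A and 62 A to B bins were left, and runs of at least 3 bins held 234 and 89. With 1 GOM library left out there were 1806 to 2610 B to A and 1236 to 1485 A to B bins. Centring gave 911 and 771 bins. The median distance to a stable sign change rose from 0 to 3300 kb (B to A) and 2310 kb (A to B) when only direct neighbours of opposite sign counted, beside 3520 kb for all bins, and it was 0 for both when stability in all 7 libraries was asked. The share of bins with the same switch in ULB was 15.4 to 18.4% (B to A) and 10.4 to 10.9% (A to B) with 1 wild boar ULB library left out, and 8.89% and 10.6% after centring, so the order of the directions turned with centring.

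Genes in switched bins called in GOM numbered 4 with DESeq2, 1 without a filter, 1 with all 7 libraries in the fit, and 0 to 3 with 1 library left out, where the lone library is assumed to vary like the other breed's. The numbers of the replicates are shared between breeds only as numbers, since they mark different animals and there are 2 pairs (correlation of deviations 0.164 over 16615 genes). With the replicate number as a block, 1 gene was called, ALB (adjusted p = 0.0254 from edgeR), and the median log2 fold changes were -0.0299 (B to A) and -0.181 (A to B). Over all genes edgeR called 4, without a filter 26, with the block 15 and with 1 library left out 0 to 115. The median log2 fold change was 0.396 in B to A and -0.644 in A to B for genes wholly inside switched bins. With TMM-scaled CPM in place of TPM, tested genes lower in both wild boar libraries fell from 50 to 27 and from 14 to 6, and higher genes rose from 1 to 16 and from 1 to 3. The ULB call of ALB and the empty interaction did not change with filterByExpr or with DESeq2's size factors. Of 27 named genes tested, 17 kept the sign of the fold change under all alternatives run, and 15 of 268 values had the other sign. With 2 libraries per breed, a median standard error of 0.532 on the log2 scale limits what a single gene can show.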
